A study of Mus musculus with 2 samples.

Results

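Cytosolic ribosomal proteins are the protein components of the ribosomes that translate nuclear-encoded messages. The genes examined here were the protein-coding genes named Rpl, Rplp or Rps followed by a number and an optional final a, x or l, without the Rps6k kinases and predicted genes. The GENCODE M1 annotation held 79 of them among 22232 protein-coding symbols, 48 for the large and 31 for the small subunit. All 79 are followed below in peak lists from chromatin immunoprecipitation and sequencing (ChIP-seq) of POU5F1 (OCT4), a POU-domain transcription factor of pluripotent cells. Each of the 2 biological replicates was the male mouse embryonic stem cell line E14TG2a.4 (strain 129/Ola, embryonic, labelled 3.5 days). Both carry the same donor label, and neither carried a treatment or an allele named in the labels. The control experiment was not analysed here. The files hold no expression, so the cell type could be checked only by peaks: those upstream of Pou5f1, downstream of Sox2 and at the Nanog promoter were in both replicate lists.

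Ribosomal protein genes are transcribed at high rates in nearly all cells, and their products assemble with ribosomal RNA in fixed proportions. Their promoters are mostly compact and CpG-rich, often hold sites for ETS-family factors such as GABPA, and many lie in gene-dense regions. POU5F1 is best known for enhancers and promoters of pluripotency genes, where it binds an octamer, often beside a SOX site. The comparison asked whether ribosomal protein genes had POU5F1 peaks near their transcript starts more often than other genes in equally dense surroundings, and whether those peaks were nearest to the ribosomal gene.

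The sequences at the peaks that lay closest to these genes are shown first, to let the promoter letters be read beside the motif counts below. All are from NCBIM37 (mm9), written 5′ to 3′ on the stated strand and outside annotated exons. For Rps7 (chr12:29320819-29320968, minus strand) and Rpl4 (chr9:64021044-64021193, plus strand) these are the 150 bases before the start. For Rps18 (chr17:34092663-34092756, minus strand) they are the 94 bases before its start, the longest stretch of the peak outside annotated exons. Capitals mark the ETS core CCGGAAG on either strand, which the Rps7 and Rps18 stretches hold once each and the Rpl4 stretch does not.
Rps7: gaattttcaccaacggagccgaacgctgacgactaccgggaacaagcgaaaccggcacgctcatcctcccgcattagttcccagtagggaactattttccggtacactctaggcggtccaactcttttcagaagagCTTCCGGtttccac
Rpl4: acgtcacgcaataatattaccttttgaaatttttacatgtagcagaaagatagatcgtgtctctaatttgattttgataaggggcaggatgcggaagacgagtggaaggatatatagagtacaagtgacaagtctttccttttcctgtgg
Rps18: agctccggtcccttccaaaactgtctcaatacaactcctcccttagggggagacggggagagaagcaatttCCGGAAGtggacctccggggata

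Further away, the peak upstream of Rps3a (chr3:85953166-85953253, plus strand) held the exact octamer, in capitals. The peak upstream of Rps19 (chr7:25664674-25664794, plus strand, 121 bases at the peak centre) was the strongest within 10 kb of any ribosomal protein gene. It held no octamer and is all in lower case.
Rps3a: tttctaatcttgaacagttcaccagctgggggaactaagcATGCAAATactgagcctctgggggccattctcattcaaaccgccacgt
Rps19: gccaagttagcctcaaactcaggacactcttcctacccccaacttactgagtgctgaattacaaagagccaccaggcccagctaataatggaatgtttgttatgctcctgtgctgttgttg

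Only a few ribosomal protein genes had a POU5F1 peak at or near the promoter. A gene was counted when the centre of a peak lay within the stated distance of any of its protein-coding starts. In the whole-series mm9 list of 5515 peaks, 3 of 79 had a peak within 1 kb (3.80%, 95% interval 0.790 to 10.7%), beside 1.91% of all protein-coding genes. Within 10 kb there were 7 of 79 (8.86%, 3.64 to 17.4%) beside 7.81%, and within 50 kb 25 of 79 (31.6%, 21.6 to 43.1%) beside 26.3%. Intervals are exact Clopper-Pearson intervals and cover counting error only. No test across the genes was run, because the list was chosen with earlier results known.

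Ribosomal protein genes had a median of 5 other protein-coding genes within 100 kb, against 4 for the rest. The share of other genes with a peak was therefore averaged over 8 bins of gene density, weighted by the number of ribosomal protein genes in each. This equal-density share was 1.92% within 1 kb, 7.82% within 10 kb and 27.1% within 50 kb. Each lay inside the interval of the ribosomal protein genes, with differences of 1.88, 1.04 and 4.59 percentage points. At this number of genes no difference from equally dense surroundings could be resolved. The upper bounds still allow 10.7%, 17.4% and 43.1%, so a difference is not shown to be absent. The promoters were also CpG-rich, with a median of 22 CpG in the 500 bases before the start against 13 for other genes. With density and CpG count held equal together, the shares of other genes were 2.55%, 9.26% and 30.8%, and the differences shrank to 1.25, -0.404 and 0.832 points.

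**Figure D1:**
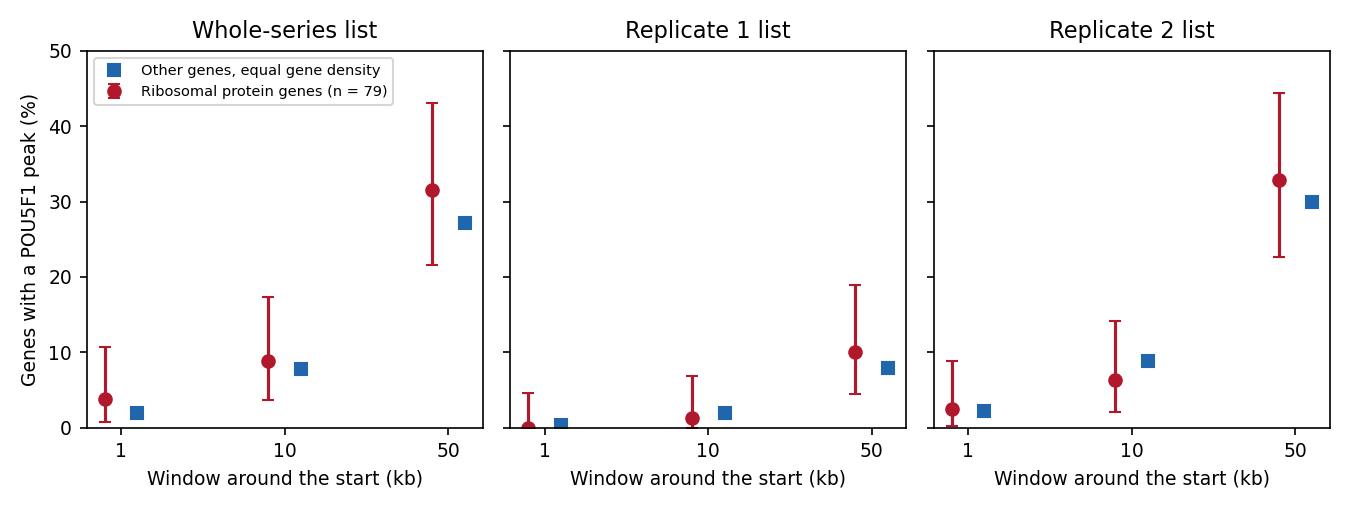
Share of genes (%) with a POU5F1 peak centre within 1, 10 or 50 kb of a start, in the whole-series mm9 list and in the list of each replicate. Red circles are the 79 ribosomal protein genes with exact 95% binomial intervals, and blue squares are other genes at equal gene density. Every blue square lies within the red interval.

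The separate lists of the replicates held different numbers of peaks. In both, the equal-density share lay inside the interval at each distance, but the sign of the difference varied. In replicates 1 and 2 the difference was -0.437 and 0.330 points within 1 kb, and -0.756 and -2.54 within 10 kb. Within 50 kb it was 2.14 and 3.01 points. In the 1330 peaks of replicate 1, 0 of 79 genes had a peak within 1 kb, which allows a share of up to 4.56%, beside 0.459% of all protein-coding genes. Within 10 kb there was 1 (1.27% beside 2.05%) and within 50 kb 8 (10.1% beside 7.79%). In the 6324 peaks of replicate 2 the counts were 2 within 1 kb (2.53% beside 2.18%), 5 within 10 kb (6.33% beside 8.82%) and 26 within 50 kb (32.9% beside 29.0%). All 8 genes near a replicate 1 peak were also near a replicate 2 peak. Among them were Rpl7, Rpl28, Rpl39l, Rps12, Rps14, Rps19 and Rps27a. Over all genes, the nearest whole-series peak at any distance lay a median of 80.1 kb from ribosomal protein genes and 129 kb from other genes. In the lists of replicates 1 and 2 these medians were 463 against 543 kb and 80.0 against 114 kb. Neither gene density nor CpG count was held equal for these distances, and the differences were not tested.

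The share did not rise steadily with gene density among ribosomal protein genes. Of the 15 genes with 10 or more neighbours within 100 kb, 4 had a peak within 50 kb (26.7%, against 32.2% of other genes in that bin). They were Rps18 with 15 neighbours, Rps16 with 12, Rpl28 with 11 and Rpl7a with 10. Rpl18, with 17 neighbours the densest of the family, had none. Of the 8 genes with 4 neighbours, Rpl3, Rpl9, Rpl36a and Rps27a had a peak (interval 15.7 to 84.3%), against 26.0% of other genes. The intervals of all 8 bins included the share of other genes.

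**Figure D2:**
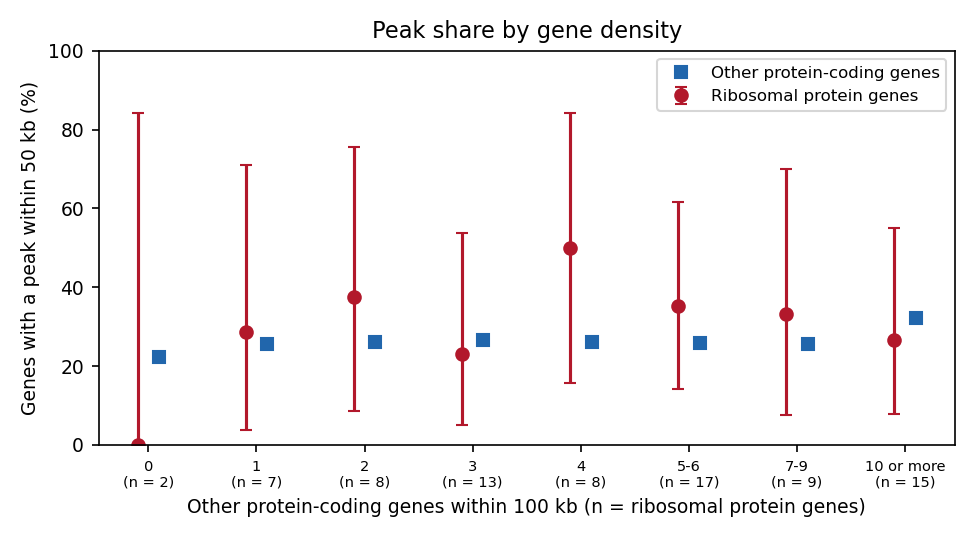
Share of genes (%) with a whole-series peak within 50 kb of a start, by the number of other protein-coding genes within 100 kb. Red circles are ribosomal protein genes with exact 95% binomial intervals and their number under each bin, and blue squares are other protein-coding genes. The red values scatter around the blue ones, which run from 22.2% to 32.2%.

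The 3 promoter peaks belonged to Rps7, Rpl4 and Rps18. Rps7 encodes a small subunit protein, and its peak (chromosome 12, 29320732 to 29320986, mm9) was centred 41 bp upstream of the start, between genes. Its deposited signal was 4.11 and its −log10 p 5.34, and it ranked 4887 of 5515 by signal. It overlapped no peak in the mm9 list of either replicate.

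Rpl4 encodes a large subunit protein that lines the exit tunnel. Its peak (chromosome 9, 64020996 to 64021289) was centred 51 bp upstream, with a signal of 5.29 and a −log10 p of 5.63, and it too was in neither replicate list. Rps18 encodes a protein of the small subunit head. Its peak (chromosome 17, 34092663 to 34093058) was stronger, with a signal of 6.17 and a −log10 p of 15.13, and was in the replicate 2 list at a signal of 9.83. Its centre lay 199 bp upstream of the protein-coding start of Rps18, in annotated exons of both Rps18 and Vps52. Vps52, a vesicle tethering gene transcribed the other way, had a start 1 bp from the centre. This peak therefore cannot be assigned to Rps18 alone. The list of replicate 2 also had a promoter peak 5 bp from a start of Rpl29, with a signal of 6.05 and a −log10 p of 5.45, which was not in the whole-series list.

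The other 4 genes with a peak within 10 kb had it upstream. Rps19, a small subunit gene mutated in the human anaemia Diamond-Blackfan syndrome, had a peak 4656 bp upstream, between genes (chromosome 7, 25664467 to 25665000). Its signal was 8.59 with a −log10 p of 31.86 in the whole-series list, 7.05 in replicate 1 and 12.26 in replicate 2. It ranked 675 of 5515, 651 of 1330 and 1103 of 6324, and it was the only peak within 10 kb of a ribosomal protein gene that was found in both replicate lists.

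Rps3a, another small subunit gene, had a peak 6623 bp upstream (chromosome 3, 85953101 to 85953393) with a signal of 4.99. Rps14, whose human counterpart is lost in the 5q deletion syndrome, had one 7452 bp upstream (chromosome 18, 60926575 to 60926848) at 4.41. Neither overlapped a peak of a replicate list. Rpl3, which encodes a protein near the peptidyl transferase centre, had a peak 7634 bp upstream (chromosome 15, 79921223 to 79921717) at 7.93, found in replicate 2 at 12.09. That peak lay 294 bp from a start of Syngr1, a synaptic vesicle gene.

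Peaks beyond 10 kb mostly lay nearer to other genes. Of the 25 genes with a peak within 50 kb, 18 had another protein-coding start nearer to their closest peak (72.0%). Among the 5816 other genes near a peak this was so for 2939 (50.5%), a comparison in which gene density was not held equal. Counted only where a peak was nearest to the gene, 7 ribosomal protein genes remained within 50 kb (8.86%), against 11.4% of other genes of equal density. Among them were Rps7, Rpl4, Rps19, Rps3a, Rps14 and Rps27a. Within 10 kb, 5 of the 7 genes kept a peak nearest to them, and within 1 kb 2 of 3. The closest peak was nearer to another gene for 28.6% and 33.3% of them. For other genes near a peak these shares were 17.0% and 9.48%, again with gene density not held equal.

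The strongest peaks within 50 kb were not at ribosomal promoters. The highest signal, 11.16, belonged to a peak 25587 bp upstream of Rpl7, in an intron of the retinol dehydrogenase gene Rdh10, with 7.47 in replicate 1 and 15.87 in replicate 2. Rps27a, which encodes a ribosomal protein fused to ubiquitin, had a peak of 9.69 at 49264 bp upstream, in an intron of the annotated gene Gm12088, with 7.47 and 15.87 in the replicates. No other protein-coding start was nearer to it. Rpl39l, a paralogue known from testis, had a peak of 9.40 in an intron of Atf7ip2, 47001 bp downstream, with 8.71 and 15.87. A peak of 7.93 lay 26112 bp upstream of Rps12 in an intron of 1110021L09Rik, with 6.22 and 12.85. These 4 peaks were present in both replicate lists, and 3 of them lay nearer to another gene.

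The other genes with a peak beyond 10 kb included Rpl7a, Rpl8, Rpl9, Rpl14, Rpl28, Rpl36a, Rpl37, Rps10, Rps13, Rps15a, Rps16 and Rps28. The stronger of these peaks were found downstream of Rps10 at 24166 bp, in an intron of Nudt3, with a signal of 7.64, and downstream of Rpl37 at 18788 bp with 7.31. Both were in the replicate 2 list, at 13.60 and 12.09, and not in that of replicate 1. Rpl28 had a peak 27553 bp downstream at 6.75, nearer to Ube2s, and it was in both replicate lists, at 6.84 and 11.34. Rpl8 had peaks on both sides, 28305 bp downstream at 6.46 and 28368 bp upstream at 4.70, nearest to Zfp647 and Zfp7. The closest peaks of Rpl7a, Rpl9 and Rps13 lay in introns of Surf6, Ugdh and Plekha7, with signals of 4.70, 5.29 and 4.41. The peak counted for Rps16 lay 60 bp from a start of Dll3, a Notch ligand gene, and 48354 bp from Rps16. In all, 32 distinct peaks lay within 50 kb, with signals from 3.82 to 11.16 and a median of 5.88, against 5.58 over the whole list. Both replicates had called 8 of these 32, against 1209 of all 5515 peaks. Replicate 2 alone had called 19 of the 32, and 5 overlapped no replicate peak, against 687 of all 5515. The median over the 7 peaks within 10 kb was 5.29, and 4 of those 7 were in neither replicate list, against 687 of all 5515 peaks.

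**Figure D3:**
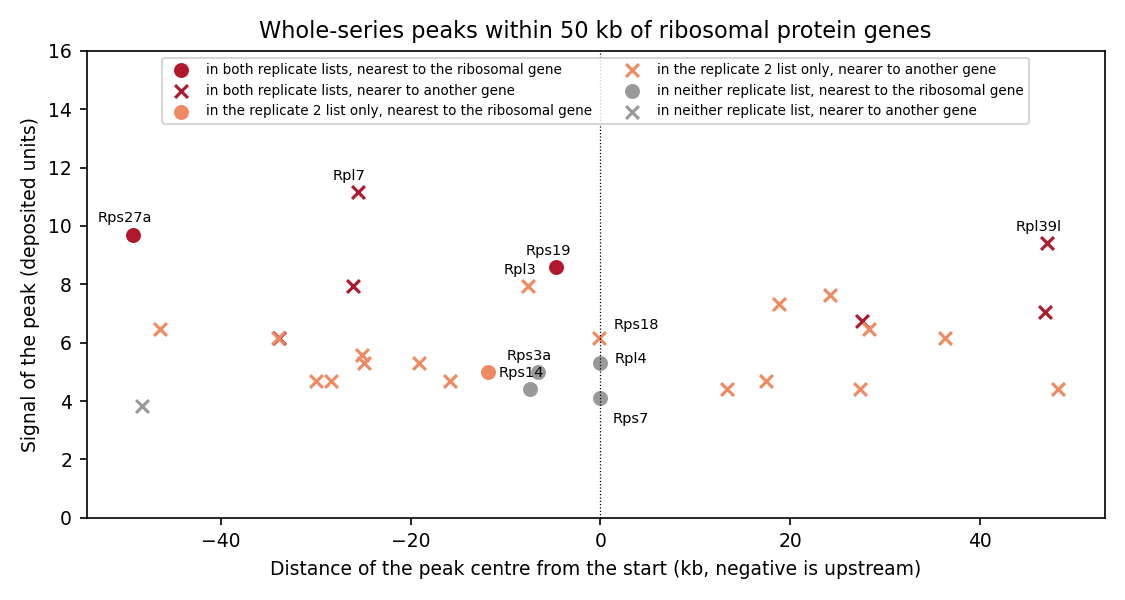
Signal (deposited units) of the whole-series peaks within 50 kb of ribosomal protein genes against the distance of the peak centre from the nearest start of that gene (kb, negative is upstream). Colour gives the replicate lists that hold the peak, circles mark peaks nearest to the ribosomal gene and crosses those nearer to another protein-coding gene. Peaks at the start have signals of 4.11 to 6.17, and the strongest, near Rpl7 at 11.16, lies 25587 bp upstream.

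By subunit, 14 of 31 small subunit genes (45.2%, 27.3 to 64.0%) and 11 of 48 large subunit genes (22.9%, with an upper bound of 37.3%) had a peak within 50 kb. The equal-density shares of other genes were 27.3% and 26.9%. Within 10 kb the counts were 5 of 31 (16.1%, 5.45 to 33.7%) and 2 of 48 (4.17%, 0.509 to 14.3%), against 7.88% and 7.78%. The intervals of the subunits overlap at both distances. The difference between them was not tested.

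Few of these peaks held a motif bound by POU factors, and the difference from other peaks was not tested. The 100 bp to either side of each centre were searched on both strands. The exact octamer ATGCAAAT was present in 3 of the 32 peaks within 50 kb (9.38%) and in 13.4% of all peaks. They were the peaks counted for Rps3a, where it lay 37 bp from the centre, Rps15a and Rpl14. The composite SOX and POU element, with up to 2 mismatches, was present in 1 of 32 (3.12%), the Rps14 peak that lay in an intron of Tcof1, against 12.4% of all peaks. Exact MORE and PORE elements, palindromic or paired POU sites, were in 0 of 32, but also in only 0.308% and 0% of all peaks, so that nothing can be read from these zeros. In total 4 of 32 peaks (12.5%) held at least 1 of these elements, against 22.0% of all peaks. The 3 promoter peaks held none.

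Among the other promoter motifs searched, only the ETS core was found in these 3 promoter peaks, and the Rpl4 peak held none. The ETS core CCGGAAG was present in the searched window of 2 of the 3, Rps7 and Rps18, against 9.92% of the other 393 peaks within 1 kb of a protein-coding start and 1.90% of all peaks. The Rps7 match is the one printed above. The match counted for Rps18 lies at the edge of its window, 97 bp from the centre, and the printed one lies outside the window, 179 bp from the centre. Over the whole family, the 300 bases around the most 5′ start (250 before and 50 after it) held the ETS core in 23 of 79 genes (29.1%), against 10.9% of all 22232 protein-coding genes. The YY1 motif AAGATGGC was in 6.33% against 3.29%, the GC box GGGCGG in 46.8% against 44.0%, the CCAAT box in 32.9% against 37.9% and the NRF1 motif in 1.27% against 1.20%. The octamer, composite, MORE and PORE elements were in 0 of 79 of these windows, against 1.72%, 0.256%, 0% and 0.00450% of all genes. A match describes the letters only, and no match leaves binding elsewhere or through other letters unaddressed.

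The mm10 lists were read with RefSeq gene starts on GRCm38, which matched all 79 genes. In the optimal list of 3994 peaks, labelled as thresholded by the irreproducible discovery rate (IDR), 3 genes had a peak within 1 kb (3.80% beside 1.34% of 20340 protein-coding genes). Within 10 kb there were 7 (8.86% beside 5.63%) and within 50 kb 24 (30.4% beside 19.5%). The equal-density shares were 1.38%, 5.64% and 20.4%. The lower bounds for the ribosomal protein genes were 0.790%, 3.64% and 20.5%, so only the one at 50 kb lay above the equal-density share, by less than 1 percentage point. In the conservative list of 2676 peaks there was 1 gene within 1 kb (1.27% beside 0.846%), with 4 within 10 kb (5.06% beside 3.76%) and 16 within 50 kb (20.3% beside 13.7%). CpG count was not held equal for these IDR lists.

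The promoter genes differed between the builds. The mm9 genes were Rps7, Rpl4 and Rps18, and the mm10 genes included Rps7 and Rpl29. Rps7 was the only gene with a promoter peak in both. The optimal Rps7 peak (chromosome 12, 28635776 to 28636111, mm10) was centred 9 bp from the RefSeq start and ranked 2657 of 3994. In the relaxed lists of peaks and background its best overlapping entry ranked 15294 of 300000 in replicate 1 and 2363 in replicate 2. The Rpl29 peak, 601 bp from the start (chromosome 9, 106429322 to 106429657), ranked 22983 and 7084 there. Both ranked lower in replicate 1 than in replicate 2. The Rps19 peak, 4872 bp upstream (chromosome 7, 24879552 to 24879887), ranked 1057 and 578. Further from the promoter, the optimal list added Rpl36, at 21851 bp, Rpl19, at 34321 bp, Rpl17, at 37589 bp, and Rpl32, at 44130 bp, none of which had a whole-series mm9 peak within 50 kb. Within 10 kb, 5 genes had a peak on both builds and 9 on either, and within 50 kb 19 and 30. Across the whole-series, replicate and optimal lists, 46 of 79 genes had no peak within 50 kb in any. These counts over several lists were not made for other genes, so no trait of the family can be read from them. In the whole-series list alone, 26.3% of all protein-coding genes had a peak within 50 kb. Coordinates were not converted, so peaks on the 2 builds are not shown to be the same sites.

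Entries at ribosomal promoters were frequent in the relaxed mm10 lists of both replicates, a measure added after seeing the data. These lists are not limited to entries below the peak thresholds. Each relaxed mm10 list holds 300000 entries of peaks and background, which makes them a weaker but wider readout of each replicate. In replicate 1, 44 of 79 ribosomal protein genes had an entry within 1 kb of the RefSeq start (55.7%, 44.1 to 66.9%), beside 38.3% of all protein-coding genes. In replicate 2 there were 57 (72.2%, 60.9 to 81.7%) beside 48.5%. In both replicates there were 33 (41.8%, 30.8 to 53.4%) beside 23.6%. For this count each list needed an entry within 1 kb of the gene, and the entries of the 2 replicates need not overlap. With density and CpG count held equal, other genes had an entry in 45.1%, 58.8% and 29.8% of cases. These shares lay below the lower bound for replicate 2 and for both replicates together, and above it for replicate 1. Holding CpG count equal as well as density raised the share of other genes from 38.9% to 45.1%, from 48.8% to 58.8% and from 23.8% to 29.8%. What else these promoters share was not tested.

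Most of these entries ranked low. In both replicates and within rank 100000 there were 13 genes (16.5%, 9.06 to 26.5%, beside 7.25% of all genes and 9.71% at equal density and CpG count). Within rank 30000 there were 4 (5.06%, 1.40 to 12.5%, beside 2.19% and 3.04%), namely Rps7, Rpl19, Rpl29 and Rpl27. Rps18 had entries at ranks 1840 and 31201, and Rpl37a at 44068 and 5283. Within 500 bp of the start, 18 genes had an entry in both (22.8%, 14.1 to 33.6%, beside 11.1% and 14.4%). In each of these narrower counts the matched share lay inside the interval. Rpl4, with its mm9 promoter peak, had entries at ranks 11059 and 79275. Among genes with an entry, the median rank of the best one was 125506 for ribosomal protein genes and 114985 for others in replicate 1, and 73731 and 94135 in replicate 2. The best rank reached was 1840, at Rps18 in replicate 1, and 2363, at Rps7 in replicate 2. Among the 3994 strongest entries of replicates 1 and 2, 1.17% and 1.24% of other genes had one within 1 kb. At equal density and CpG count this was 1.53% and 1.67%. Of the 79 ribosomal protein genes, 1 had an entry within 1 kb in each replicate (1.27%). Among the strongest 30000, 10 genes did in replicate 1 (12.7%, 6.24 to 22.0%) and 17 in replicate 2 (21.5%, 13.1 to 32.2%), against 8.27% and 14.5% of others at equal density and CpG count, which lie inside both intervals. In neither replicate was there an entry within 1 kb for Rpl10, Rpl10l, Rpl13, Rpl17, Rpl36, Rpl39, Rpl39l, Rplp0, Rps10 or Rps27l.

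**Figure D4:**
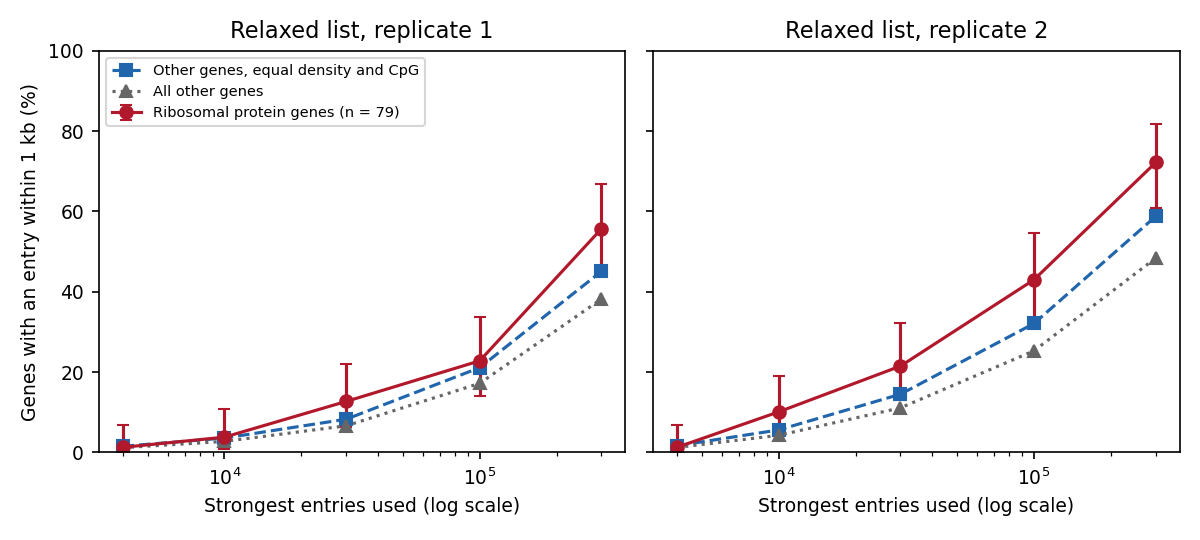
Share of genes (%) with an entry centred within 1 kb of the RefSeq start on GRCm38, against the number of strongest entries used from the relaxed list of each replicate (log scale, 3994 to 300000). Red circles are ribosomal protein genes with exact 95% binomial intervals, blue squares other genes at equal gene density and CpG count, and grey triangles all other genes. At 3994 entries red stands at 1.27% in both replicates, blue at 1.53% and 1.67%, and grey at 1.17% and 1.24%. Red ends highest, at 55.7% and 72.2%.

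Other genes of the translation machinery are given for context, with whole-series peaks. Of 76 mitochondrial ribosomal protein genes, whose products form the separate ribosome of mitochondria, 5 had a peak within 1 kb (6.58%, 2.17 to 14.7%), 7 within 10 kb (9.21%) and 21 within 50 kb (27.6%). The equal-density shares were 1.83%, 7.65% and 26.7%. The strongest promoter peaks there were at Mrpl21 (7.34, nearest to Ighmbp2 and in both replicate lists), Mrps31 (6.75) and Mrps25 (6.46), the last 2 in the replicate 2 list only. Of 38 genes for ribosome assembly, 0 had a peak within 1 kb and 12 within 50 kb (31.6%, 17.5 to 48.7%, against 26.6% at equal density). Of 35 initiation factor genes the counts were 0 and 8 (22.9%, 10.4 to 40.1%, against 26.8%), and of 14 elongation and termination factor genes 0 and 6 (42.9%, 17.7 to 71.1%, against 27.8%). Of 21 aminoacyl-tRNA synthetase genes they were 0 and 8 (38.1%, 18.1 to 61.6%, against 27.0%). Genes of RNA polymerase I and its factors had 1 of 14 within 1 kb, Twistnb at 5.29, and 6 within 50 kb (42.9%, 17.7 to 71.1%, against 26.8%). Genes of the TOR pathway, which controls translation of ribosomal protein messages, had 1 of 14, Tsc1 at 5.58, and 8 within 50 kb (57.1%, 28.9 to 82.3%, against 27.8%). Apart from the mitochondrial list, the equal-density shares within 1 kb ran from 1.82% to 2.06%. In lists of this size nothing can be read from counts of 0 or 1. Among these lists, only the TOR interval lay above its equal-density share at 50 kb. Within 1 kb only that of the mitochondrial ribosomal protein genes did. CpG count was not held equal for these lists, and no list was tested.

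Of 6 ribosomal genes outside the naming rule, Rpl22l1, a paralogue of Rpl22, had a promoter peak 26 bp upstream (chromosome 3, 28704130 to 28704534) at a signal of 5.58, present in the replicate 2 list. Rpl7l1 had one 5461 bp upstream at 5.29, also in replicate 2 only. The closest peak to Fau lay 27610 bp away and nearer to Cdca5, and Rpsa and Rpl36al had none within 50 kb.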

How the data were processed

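POU5F1 ChIP-seq in 2 biological replicates of E14TG2a.4 was analysed from peak lists. Per the deposited file descriptions, mm9 lists were deposited for each replicate and the whole series, and mm10 lists as relaxed input for IDR and as optimal and conservative IDR lists. The caller, aligner, IDR threshold and the way replicates were combined on mm9 are not given in the sources used here. Each peak has a signal deposited by the authors, of unstated scaling, which was used only to rank and describe peaks within a list. The mm9 lists deposited by the authors give −log10 p and a q-value, and the deposited mm10 lists −log10 q and a score, not used in any test. Depth is unknown.

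Distances ran from peak centre (mm9) or summit (mm10) to protein-coding starts of GENCODE M1 on NCBIM37, or to the 5′ end of RefSeq genes on GRCm38, with strand taken from GENCODE. Equal-density shares used bins of 0, 1, 2, 3, 4, 5 to 6, 7 to 9, and 10 or more other genes within 100 kb. The CpG quintiles used 500 bases before the start, and for all mm10 lists both density and CpG count were the NCBIM37 values matched by symbol. Overlap meant at least 1 bp. Functions were tested on simulated data (Python 3.11.15). Named by rule were all genes with a peak within 10 kb, those beyond it whose peak was nearest to them, the 5 with the highest signals at 10 to 50 kb, the strongest within 1 kb in the replicate lists, 6 related ribosomal genes, and up to 3 genes of each other list with the strongest peak within 1 kb. Other genes named, including those of the mm10 and relaxed lists, were chosen after their values were seen. The genes and lists were chosen with earlier results of these data known, and the relaxed-list measure after seeing the data. Results for some genes are not reported here.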

Additional observations from a re-analysis of the deposited data

How the results depend on the processing

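Of the share of ribosomal protein genes with a peak (3.80%, 8.86% and 31.6% within 1, 10 and 50 kb), the values that left the interval came from fewer peaks or a narrower count of genes. With 1 replicate alone the shares ran from 0 to 2.53%, 1.27 to 6.33% and 10.1 to 32.9%, and only those of replicate 1 left the interval. Within 50 kb the share was 17.7% with −log10 p of at least 10, 8.86% for genes nearest to a peak and 20.3% in the mm10 conservative list. The difference from genes of equal density (1.88, 1.04 and 4.59 points) changed sign in some settings. With 1 replicate alone it ran from -0.437 to 0.330, from -2.54 to -0.756 and from 2.14 to 3.01 points. Within 10 kb it was -0.584 with −log10 p of at least 10 and -0.404 with CpG count added, and within 50 kb -2.58 for genes nearest to a peak. The cause was not tested. Peak edges, the most 5′ start alone, leaving out 4 paralogues, density within 1 Mb and the optimal list kept the sign at all 3 distances.

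The relaxed-list share in both replicates (41.8%) was 55.7 to 72.2% with 1 replicate alone, 16.5% and 5.06% with entries of rank up to 100000 and 30000, and 22.8% within 500 bp, which all change what is counted. Its difference from genes of equal density and CpG count ran from 2.02 to 18.2 points over these settings, gene density alone and no matching, and was above 0 in each. The matched share lay below the interval in both replicates together (29.8% against a lower bound of 30.8%) and in replicate 2 alone, but inside it in replicate 1 alone (45.1%), within rank 100000 (9.71%), within rank 30000 (3.04%) and within 500 bp (14.4%). With up to 3 mismatches the composite element was in 7 of 32 peaks (21.9%) against 38.7% of all peaks. No paired analysis was possible because the study has 1 group. Read depth is unknown, and with 79 genes the interval at 50 kb spans 21.6 to 43.1%.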

Other observations

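The annotation also lists 54 protein-coding symbols that are named as processed copies of ribosomal protein genes (with -ps in the name), which were counted among the other genes. Of these, 0 had a whole-series peak within 1 kb, 3 within 10 kb and 13 within 50 kb, where the shares over all protein-coding genes were 1.91%, 7.81% and 26.3%.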
